A study of Danio rerio with 10 samples.

Results

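The Hairy-related transcription factor genes her5, her1, her3, her6, her7 and her9 were followed in early zebrafish embryos; these are 6 of the 8793 genes named on the array. The members were all probe sets that the array annotation gives to 1 of these 6 genes, which came to 7 of the 15502 probe sets tested, with 2 for her3 and 1 for each of the others. No probe set named a member together with another gene. The data came from 10 Affymetrix Zebrafish Genome Arrays in 2 experiments, and each array was hybridised with RNA from whole embryos. In experiment 1, 3 arrays labelled morphant held embryos at 4.3 h post fertilization (hpf) that had been injected soon after fertilization with a morpholino against sox19b. They were set against 3 arrays of embryos at 4.3 hpf whose labels read wildtype and which the series text describes as injected with a placebo, called control here. In experiment 2, 2 arrays of uninjected wildtype embryos at 4 hpf, after the mid-blastula transition, were set against 2 at 2.5 hpf, before it. No source used here names the fish strain, the parents of each batch or how many embryos made up a sample. The p-values therefore measure only the spread between these samples.

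Hairy-related proteins are basic helix-loop-helix repressors. They bind DNA as dimers and end in a short motif that recruits Groucho co-repressors. In many tissues their genes are switched on by Notch: a ligand on a neighbouring cell leads to cleavage of the receptor, and the freed intracellular part joins the DNA-binding factor Rbpj. In zebrafish, her1 and her7 oscillate in the presomitic mesoderm as part of the segmentation clock, her5 acts in endoderm precursors and at the midbrain-hindbrain boundary, and her3, her6 and her9 act in the neural plate, where her3 represses the proneural gene neurog1.

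The morpholino defines the embryos labelled morphant, so its sequence is shown, with its reverse complement, which is the strand it would pair with. The capitals mark the 3 bases CAG in the reverse complement and their partners in the oligonucleotide.
morpholino: acatttgaCTGtggagaggaaaaaa
reverse complement: ttttttcctctccaCAGtcaaatgt
Of the 14 bases before the CAG, 13 are pyrimidines. Introns commonly end in AG after a pyrimidine run, and the labels place the target at an intron-exon junction. The site in the genome was not looked up here. The sox19b transcript itself was higher in the arrays labelled morphant by 0.97 (adjusted p = 0.00214) and 1.33 (adjusted p = 1.82e-04) on the log2 scale in its 2 probe sets. A block of splicing can leave the transcript level as it is or change it, and the extent of the knockdown is not measured by these levels.

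Values are log2 expression per probe set as the authors normalized them, so that a difference of 1 is a 2-fold change. The experiments appear normalized apart, with array medians of 5.40 to 5.44 in experiment 1 and of 6.15 to 6.26 in experiment 2, so values of the 2 experiments are not comparable as they stand. The background level was set from 17 tag control probe sets, which match no zebrafish gene, as their highest group mean. In experiment 1 it was 5.10 for arrays labelled morphant and 5.13 for controls; in experiment 2 it was 6.33 for 4 hpf and 6.24 for 2.5 hpf. A group mean that did not exceed it is called dim. Within groups, arrays correlated at 0.995 to 0.996 across probe sets in arrays labelled morphant, at 0.990 to 0.996 in controls, and at 0.997 and 0.998 at 4 and 2.5 hpf. Control replicate 2 gave the lowest values, 0.990 with replicate 1 and 0.992 with replicate 3.

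her5 was the member with the largest difference in both experiments: it was lower in the embryos labelled morphant and higher in wildtype embryos at 4 hpf than at 2.5 hpf. her9 and the brighter her3 probe set, named so by its mean over the 10 arrays, passed the test in 1 experiment each, with small differences at background. her6 was above background in every array and was not called in either experiment, and her1 and her7 were high in 1 control array alone. In experiment 1, 2 of the 7 probe sets fell and 0 rose (limma, Benjamini-Hochberg adjusted p below 0.05). Of all probe sets, 42.5% were called: 21.3% rose and 21.2% fell. In experiment 2, 2 of the 7 rose and 0 fell. Of all probe sets, 19.5% were called: 9.66% rose and 9.88% fell. The median difference of the 7 was -0.26 in experiment 1, against -0.04 over all probe sets, and 0.13 in experiment 2, against 0.05 over all. With 7 probe sets, nothing is read from these shares about the family as a group. By limma, 2 of the 7 had an unadjusted p under 0.05 in each experiment. The array groups of 3 members' probe sets did not overlap in experiment 1 and those of 6 did not in experiment 2, where 52.4% and 62.3% of all probe sets did not overlap.

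The first question was what the her genes did in embryos labelled as given the sox19b morpholino. her5 read 5.70, 6.08 and 5.43 in the arrays labelled morphant, against 8.86, 8.02 and 8.41 in the control arrays. All 3 arrays labelled morphant lay below all 3 controls, by about 2 units at the nearest, and all 6 lay above background. Replicate 3 labelled morphant, at 5.43, was only just above its own highest tag control of 5.40. The means were 5.73 ± 0.32 (SD, n = 3) and 8.43 ± 0.42 (SD, n = 3), so her5 was 6.48-fold lower in the arrays labelled morphant (log2 difference -2.70, SE 0.22, limma adjusted p = 3.7e-06). Of all probe sets, 1.17% had a more negative difference. The her5 call was made under all 13 alternative settings, with differences between -2.90 and -2.46.

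her6, which is related to mammalian Hes1, was bright in both groups. It read 7.48, 7.40 and 7.65 in the arrays labelled morphant, against 7.67, 7.69 and 7.68 in the control arrays. The control arrays lay within 0.03 of one another and just above the highest array labelled morphant. The difference of -0.17 (95% interval -0.41 to 0.07) was not called (limma adjusted p = 0.251), and it was 0.07 (adjusted p = 0.56) when arrays were scaled on Bacillus control probe sets added as RNA of known amount. That scaling moved the median difference of all probe sets to 0.21, against -0.04 as deposited. The Bacillus means of the 6 arrays were 5.18 to 5.48, near their highest tag controls of 4.935 to 5.40. Whether they follow added RNA of known amount or background was not tested. The interval leaves out a change of her6 as large as that of her5.

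her9, a relative of her6 that acts between the proneural domains of the neural plate, passed the test at a level below background. It read 4.203, 4.234 and 4.391 in the arrays labelled morphant, against 4.432, 5.024 and 4.662 in the control arrays. The groups did not overlap, but replicate 3 labelled morphant and control replicate 1 were only 0.04 apart, and all 6 arrays were below the tag controls. The difference was -0.43 (SE 0.15, limma adjusted p = 0.0393), and no fold is given since both groups were dim. The call was lost under Bacillus control scaling (-0.19, adjusted p = 0.274), under joint quantile normalization of all 10 arrays (-0.31, adjusted p = 0.0909), without any 1 array labelled morphant (adjusted p = 0.059 to 0.123), and without control replicate 2 or 3 (adjusted p = 0.103 and 0.0788).

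her3 was dim in every group by both probe sets. The brighter read 3.80, 3.90 and 3.55 in the arrays labelled morphant, against 3.49, 4.58 and 3.97 in the control arrays. The groups overlapped, with control replicate 2 the highest array. The difference was -0.26 (95% interval -0.77 to 0.25, limma adjusted p = 0.426), and without control replicate 1 it was called (-0.52, adjusted p = 0.0431). The dimmer probe set differed by 0.04 (95% interval -0.28 to 0.37, limma adjusted p = 0.864).

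her1 and her7, the cyclic genes of the segmentation clock, stood out through 1 array. her7 read 5.10, 5.32 and 5.22 in the arrays labelled morphant, against 3.83, 7.66 and 4.85 in the control arrays. Control replicate 2 was thus far above background, the other control arrays were dim, and the arrays labelled morphant lay between them near the background level. her1 read 2.41, 2.56 and 2.42 in the arrays labelled morphant, against 2.16, 5.24 and 2.78 in the control arrays. Again control replicate 2 was the 1 array above its own highest tag control, 5.06. Neither gene was called: her7 differed by -0.23 (95% interval -1.84 to 1.38, limma adjusted p = 0.844) and her1 by -0.93 (95% interval -2.26 to 0.40, limma adjusted p = 0.258).

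Both results rest on control replicate 2. Without it, her7 was higher in the arrays labelled morphant, at 5.21 against a mean of 4.34 in control replicates 1 and 3 (difference 0.87, SE 0.22, limma adjusted p = 0.00677). Since those controls were dim, this is at least 1.03-fold. Without it, her1 averaged 2.46 in arrays labelled morphant and 2.47 in controls (difference -0.0083, adjusted p = 0.977). Without control replicate 1, her1 was called as lower (-1.55, adjusted p = 0.0295).

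**Figure D1:**
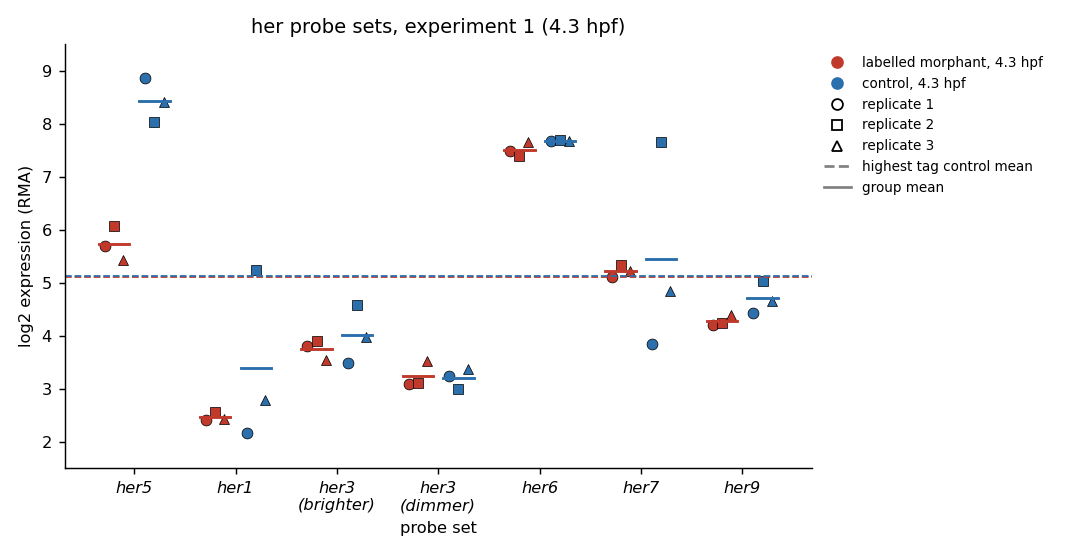
Log2 expression of the 7 her probe sets at 4.3 hpf in 3 arrays labelled morphant (red, left of each pair) and 3 control arrays (blue, right); marker shapes are replicate numbers, short bars are group means and the dashed lines, which lie almost on each other, are the highest tag control means of the groups (5.10 and 5.13). her5 differs between the groups by -2.70, and control replicate 2 (squares) stands above the other controls in her1 and her7.

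The high her7 and her1 values of control replicate 2 were set against the rest of that array. her7 exceeded the mean of the other controls by 3.32, the largest such excess among all 15502 probe sets, and her1 by 2.77, the third largest. Between them stood cdx4, a caudal homeobox gene of the posterior body, at 2.79. Next in rank were 2 probe sets of sox2, which is not on the presomitic list below, at 2.31 and 2.17. Both cdx4 and sox2 were ranked with the values in view. her7 and her1 are next to each other on chromosome 5 in the RefSeq gene table of the assembly GRCz12tu. For the nearest other measured genes on either side, mepcea and spaw, control replicate 2 minus the mean of the other controls was -0.36 and 0.04. Between arrays labelled morphant and control arrays they differed by 0.13 and -0.06, and neither was called (limma adjusted p = 0.481 and 0.742). The other members did not share the excess to that degree: control replicate 2 was above the mean of the other controls by 0.85 for the brighter her3 probe set, 0.48 for her9 and 0.02 for her6, and below it for her5 (-0.61) and the dimmer her3 probe set (-0.30). The median over all probe sets was 0.0037.

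Some genes of the segmentation clock and presomitic mesoderm were high in the same array. Of 10 measured genes of that list, 6 were highest in control replicate 2 among the controls, where 38.9% of all probe sets were, and the median excess of the list was 0.25. tbx6 was only 0.05 above the mean of the other controls, and fgf8a (-0.05), cdx1a (-0.13) and mespba (-0.32) were below it. cdx4 read 3.78, 7.06 and 4.75 in control replicates 1, 2 and 3. msgn1, a mesodermal helix-loop-helix factor, read 4.33, 6.21 and 4.44, and mespaa, a somite factor, read 3.70, 5.36 and 3.56. All 3 were below background in replicates 1 and 3 and above it in replicate 2. The Delta ligand gene dlc, which also cycles in the presomitic mesoderm, read 3.885, 6.185 and 4.404. Of the other lists, 10 of 14 midbrain-hindbrain genes (median excess 0.15) and 5 of 7 Notch ligand genes (0.31) were highest in this array. The remaining lists showed less: 8 of 15 Notch signal transduction genes (0.08), 5 of 11 other Hairy, Hes and Hey genes (0.04) and 2 of 4 Notch receptor genes (0.03). Of the proneural genes 4 of 10 were highest there (0.02), and of the Groucho genes 1 of 3 (-0.27). Among markers of other parts of the embryo, 5 of 6 yolk syncytial layer genes and 4 of 5 enveloping layer genes were highest in control replicate 2, with median excesses of 0.82 and 0.40. Of 9 maternal oocyte genes, 0 were highest there, with a median of -0.43. Their part in the her1 and her7 values was not tested.

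**Figure D2:**
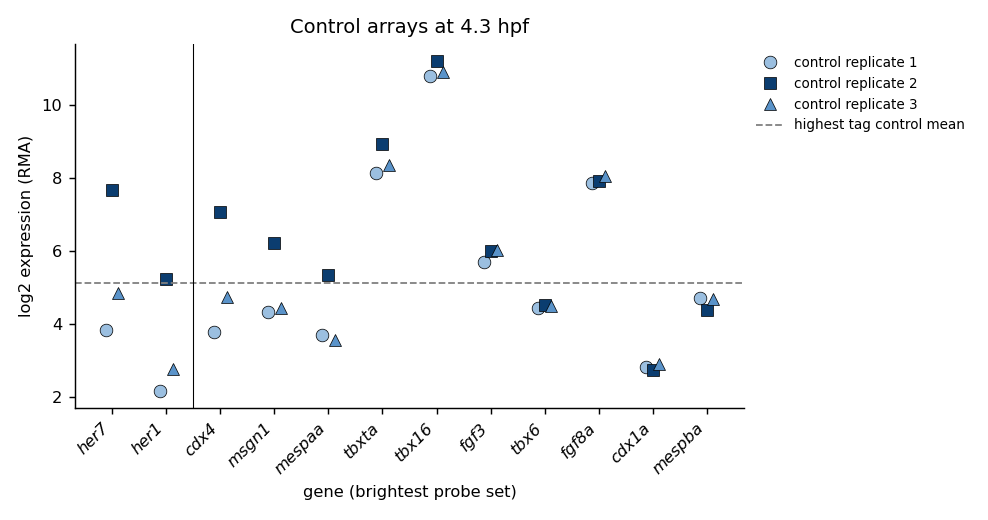
Log2 expression in the 3 control arrays at 4.3 hpf of her7 and her1 (left of the vertical line) and of the 10 measured genes of the segmentation clock and presomitic mesoderm list, ordered by the excess of control replicate 2 over the mean of the other controls. The dashed line is the highest tag control mean, 5.13; replicate 2 (dark squares) is the 1 array above it for her7, her1, cdx4, msgn1 and mespaa.

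The second question was which her genes changed in wildtype embryos across the mid-blastula transition. her5 read 7.88 and 7.90 at 4 hpf, against 5.01 and 4.92 at 2.5 hpf. Both 4 hpf arrays were above background and both 2.5 hpf arrays well below it. The log2 difference was 2.92 (SE 0.09, 95% interval 2.73 to 3.12, limma adjusted p = 6.16e-10), larger than in 99.9% of probe sets. As her5 was dim at 2.5 hpf, it was at least 3.14-fold higher at 4 hpf, and the call was made under all 11 alternatives.

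The brighter her3 probe set read 5.07 and 4.75 at 4 hpf, against 4.51 and 4.31 at 2.5 hpf. All 4 values were below background, and the groups did not overlap. The rise of 0.50 (SE 0.12, limma adjusted p = 0.011) was called, but not under joint quantile normalization (adjusted p = 0.0534), in a fit of all 10 arrays together (adjusted p = 0.345) or without replicate 2 of 2.5 hpf (adjusted p = 0.0836). The dimmer her3 probe set read 5.01 and 4.70 at 4 hpf, against 4.89 and 4.64 at 2.5 hpf. At 2.5 hpf it thus read above the probe set named brighter. It overlapped between the times, with a difference of 0.09 (95% interval -0.17 to 0.35, limma adjusted p = 0.608).

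her6 was above background at both times, at 6.90 and 6.92 at 4 hpf, against 6.84 and 6.72 at 2.5 hpf. The difference of 0.13 (95% interval -0.07 to 0.33) was not called (limma adjusted p = 0.329). A level above the tag controls does not by itself show that a transcript was present before the transition. Among 9 genes of late differentiated tissues, ins and actc1b averaged 6.94 and 7.47 at 2.5 hpf, while 5 were dim at both times. her9 read 5.81 and 6.13 at 4 hpf, against 5.80 and 5.75 at 2.5 hpf, dim at both times, and its difference of 0.20 was called without replicate 1 of 4 hpf (adjusted p = 0.0345) and not with all arrays (limma adjusted p = 0.225). her7 read 5.59 and 5.63 at 4 hpf, against 5.75 and 5.82 at 2.5 hpf. her1 read 3.29 and 3.31 at 4 hpf, against 3.54 and 3.39 at 2.5 hpf. Both clock genes were dim at both times and were not called (limma adjusted p = 0.182 and 0.219), though her7 was called as lower under joint quantile normalization (-0.35, adjusted p = 0.0331).

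**Figure D3:**
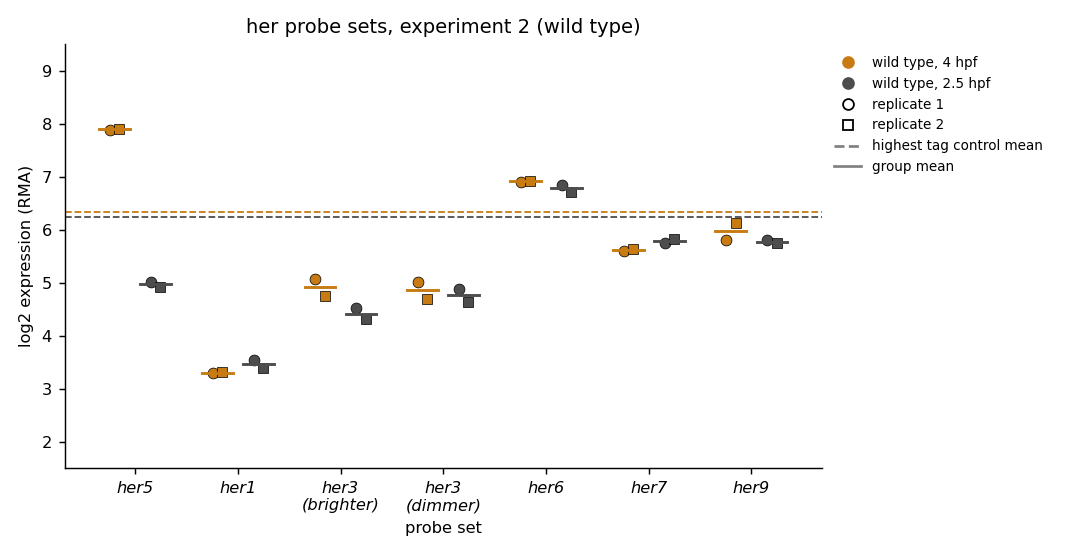
Log2 expression of the 7 her probe sets in wildtype embryos, 2 arrays at 4 hpf (orange, left of each pair) and 2 at 2.5 hpf (grey, right); short bars are group means and dashed lines the highest tag control mean of each group (6.33 and 6.24). her5 is above its line at 4 hpf and below it at 2.5 hpf, her6 is above it at both times, and the other probe sets are below it at both.

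**Figure D4:**
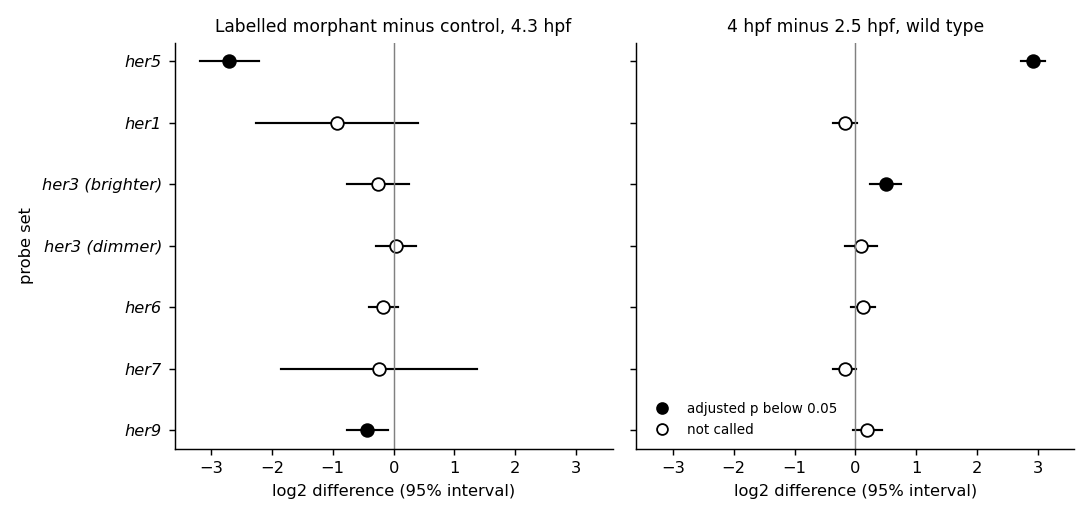
Log2 differences of the 7 her probe sets with 95% intervals from limma, arrays labelled morphant minus control arrays at 4.3 hpf (left panel) and 4 hpf minus 2.5 hpf in wildtype embryos (right panel); filled points have an adjusted p below 0.05. her5 lies at -2.70 and 2.92, and the wide intervals of her1 and her7 in the left panel go with control replicate 2.

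To order the 4 groups, all 10 arrays were quantile normalized together, which does not remove a difference between the experiments. On that scale her5 averaged 4.37 ± 0.02 (SD, n = 2) at 2.5 hpf, 6.004 ± 0.291 (SD, n = 3) with the label morphant, 7.63 ± 0.01 (SD, n = 2) at 4 hpf and 8.58 ± 0.38 (SD, n = 3) for controls. No neighbouring groups overlapped in that order, and it was the same under median centring and Bacillus control scaling. In experiment 2 too, the Bacillus means (6.37 to 6.42) were near the highest tag controls of the arrays (6.15 to 6.52). What they follow was not tested there either. her6 averaged 6.39 ± 0.08 (SD, n = 2) at 2.5 hpf, 6.55 ± 0.0022 (SD, n = 2) at 4 hpf, 7.66 ± 0.12 (SD, n = 3) with the label morphant and 7.90 ± 0.03 (SD, n = 3) for controls, again with no overlap between neighbours. Both groups of experiment 1 were thus more than 1 unit above both groups of experiment 2 for her6, and stage and experiment cannot be told apart there. Under Bacillus control scaling the 2 groups of experiment 1 changed places for her6. The other members gave no firm order: neighbouring groups overlapped at least once for her1, both her3 probe sets, her7 and her9, and the order held under all 3 scalings for her9 alone among them.

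The genes with the profile most like each member were then listed. Each experiment's own mean was first removed from every probe set. Likeness was the root mean square difference from the member's brightest probe set over the 10 arrays. The candidates were about 6310 probe sets with 1 gene and a mean above background in at least 1 group of each experiment. A candidate could be dim in the other group, as inka1a and klf17 were at 2.5 hpf. The genes nearest to her5 were inka1a (0.20, Pearson r = 0.993), id1 (0.28, r = 0.987) and klf17 (0.30, r = 0.977). The arrays share their group differences, so r is a description. inka1a, which encodes an inhibitor of p21-activated kinases, had log2 differences of -3.13 in experiment 1 and 2.79 in experiment 2. id1, a BMP target whose protein blocks helix-loop-helix factors, had differences of -2.58 and 2.22. klf17, a Krüppel-like factor, had differences of -2.41 and 3.24. All 3 were called in both experiments (limma adjusted p of 3.35e-07, 2.23e-06 and 1.51e-06 in experiment 1, and 2e-09, 2.7e-08 and 4.83e-09 in experiment 2).

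For the other members the likeness was set by small differences or by control replicate 2. Genes dim at both times of experiment 2, such as her1, her7, cdx4 and mespaa, were not candidates. her1 and her7 thus could not be listed for each other. The genes nearest to her7 were fetub (0.63, r = 0.718), slc35b4 (0.69, r = 0.720) and znf346 (0.69, r = 0.822), and those nearest to her1 were fetub (0.42, r = 0.889), fscn1a (0.47, r = 0.855) and ckap4 (0.49, r = 0.818). In control replicate 2 fetub exceeded the other controls by 1.26, less than her7 or her1 did. her6 was nearest to faf1, med8 and abat (0.03 each), her9 to nampt2, pias4a and smu1a (0.08 to 0.09), and her3 to gmds, appa and atp5if1a (0.17 to 0.19). Those members' own root mean square departure from the mean was 0.10, 0.24 and 0.33, against 1.41 for her5.

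**Figure D5:**
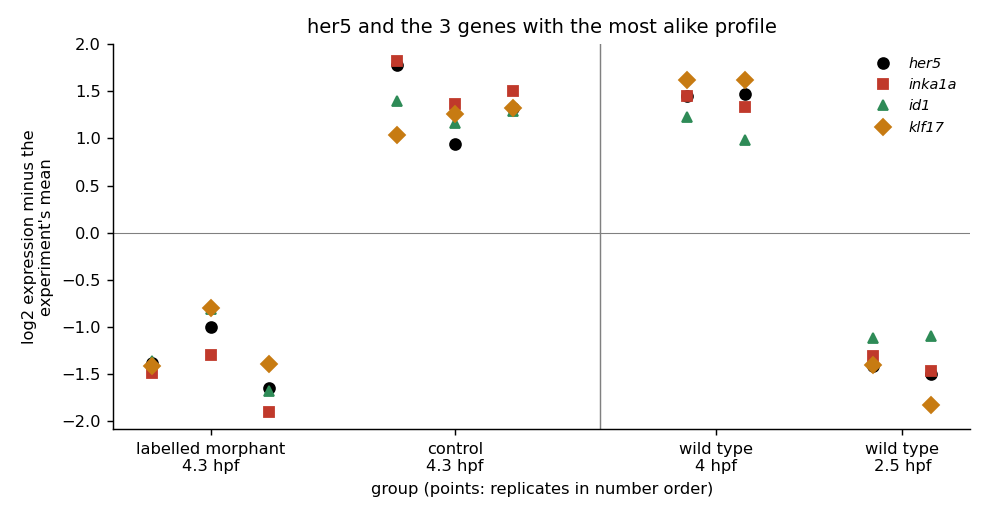
Log2 expression minus the mean of the experiment for her5 (black circles), inka1a (red squares), id1 (green triangles) and klf17 (orange diamonds) in each of the 10 arrays; the grey vertical line separates experiment 1 (left) from experiment 2 (right). All 4 genes lie below 0 in arrays labelled morphant and at 2.5 hpf and above 0 in control arrays and at 4 hpf.

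Among 11 other measured genes of the Hairy, Hes and Hey family, 3 fell and 0 rose in arrays labelled morphant (median -0.03, against -0.04 over all probe sets). Of all probe sets, 21.2% fell and 21.3% rose in experiment 1, and 9.88% fell and 9.66% rose in experiment 2. hes6, whose product pairs with Her1 in the zebrafish clock, averaged 6.04 ± 0.22 (SD, n = 3) in arrays labelled morphant, against 8.30 ± 0.68 (SD, n = 3) in controls, and was 4.80-fold lower (limma adjusted p = 6.77e-05). Its control values were 7.74, 9.06 and 8.11, highest in replicate 2 as for her1 and her7. her8a was at least 1.38-fold lower (limma adjusted p = 1.6e-04), and hey1 fell by 0.91 (limma adjusted p = 8.69e-05) at background. Between 4 and 2.5 hpf, 1 of the 11 rose, her8a by 0.41 (limma adjusted p = 0.0201), at background at both times. hes6 was dim at both of these times. The gene her11, next to her5 on chromosome 14, was not analysed here.

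In experiment 1, 5 of 7 measured Notch ligand genes and 3 of 4 receptor genes were dim in both groups, against 2 of 15 genes that process or transduce the signal. Of the 7 ligand genes, 1 rose and 2 fell in arrays labelled morphant (median -0.08): jag2b rose by 0.46 (limma adjusted p = 0.0139), and dlb and jag1a, dim in both groups, fell by 0.49 and 0.38. None of the 7 was called between 4 and 2.5 hpf. Of all probe sets, 42.5% were called in experiment 1 and 19.5% in experiment 2. Nothing is read from the counts of these short lists about a list as a group. The brightest ligand gene, dld, was not called in either experiment (differences -0.08 and 0.10, limma adjusted p = 0.694 and 0.486). Of the 4 receptor genes, 2 fell (median -0.37): notch1a was 1.77-fold lower (limma adjusted p = 6.39e-05), and notch3, dim in both groups, fell by 0.56 (limma adjusted p = 0.0234). At 4 hpf 1 of the 4, notch1b, was higher than at 2.5 hpf, by 0.37 at background (limma adjusted p = 0.0142). Of the 15 genes for processing and transducing the signal, 6 fell and 1 rose in arrays labelled morphant (median -0.23), and 2 fell under Bacillus control scaling. The falls of this list ranged from 4 to 5 when 1 array was left out. nrarpa, a Notch target that limits the signal, was 2.75-fold lower (limma adjusted p = 5.2e-05), mib1, the ligase that acts on Delta, was 1.90-fold lower (limma adjusted p = 0.00137), and the Fringe gene rfng was 1.71-fold higher (limma adjusted p = 8.72e-04). At 4 hpf 3 of the 15 were higher than at 2.5 hpf and 1 was lower, with the Fringe gene lfng at least 3.50-fold higher (limma adjusted p = 1.53e-07), nrarpa higher by 0.64 at background and the gamma-secretase gene psenen 1.40-fold lower. Of the 3 measured Groucho genes, all above background in every group, tle2a fell by 0.35 and tle3b rose by 0.40 in arrays labelled morphant (limma adjusted p = 0.0185 and 0.0291). tle2a was no longer called under Bacillus control scaling (adjusted p = 0.37) or without replicate 2 labelled morphant (adjusted p = 0.0657), nor tle3b under joint quantile normalization or without replicate 2 or 3 labelled morphant or control replicate 1 or 2 (adjusted p = 0.051 to 0.113). Of these 3, tle3a was higher at 4 hpf, by 0.34 (limma adjusted p = 0.0309), a call lost under median centring (0.25, adjusted p = 0.0795) and in the fit of all 10 arrays (adjusted p = 0.335).

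Genes of some sites where the her genes are known to act were also counted: presomitic, midbrain-hindbrain and proneural genes. No list was made for endoderm precursors, where her5 also acts. Of all probe sets, 21.2% fell and 21.3% rose in experiment 1, and 9.88% fell and 9.66% rose in experiment 2. Nothing is read from the counts below about a list as a group. In experiment 1, 4 of 10 presomitic, 9 of 14 midbrain-hindbrain and 8 of 10 proneural genes were dim in both groups. In experiment 2, 9, 11 and 9 of them were dim at both times. Of the 10 presomitic genes, 5 fell and 1 rose in arrays labelled morphant (median -0.55): the T-box genes tbx16 and tbxta were 23.4-fold and 5.13-fold lower and the ligand gene fgf8a averaged 5.86 in arrays labelled morphant, against 7.93 in controls (limma adjusted p = 6.34e-08, 3.46e-06 and 2.15e-07). Without control replicate 2, cdx4 and mespaa rose as well, by 1.58 and 0.49 (mespaa at background), which with mespba made 3 rises. At 4 hpf, 2 of the 10 were higher (tbx16 at least 1.09-fold, and tbxta by 0.31 at background) and fgf8a was lower by 0.34 at background. Of 14 midbrain-hindbrain genes, 5 fell and 2 rose in arrays labelled morphant (median -0.17), among them gbx1, at least 3.37-fold lower, otx1, 3.76-fold higher, and irx1b, lower by 0.83 at background (limma adjusted p = 3.41e-06, 1.69e-05 and 0.00143). At 4 hpf 3 of the 14 were higher and 1 was lower, with irx7 at least 4.42-fold higher, otx1 1.33-fold lower and irx1b higher by 0.34 at background. Of 10 proneural genes, 2 rose and 0 fell in arrays labelled morphant (median 0.09). These were neurod6a, at least 2.18-fold higher, and neurog1, the target of her3, which averaged 5.68 in arrays labelled morphant, against 4.41 in controls, and was at least 1.46-fold higher (limma adjusted p = 4.43e-07 and 8.45e-05). At 4 hpf ascl1a was higher, by 0.35 at background, and neurod6a was 1.40-fold lower than at 2.5 hpf.

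Several of the small differences in these lists rested on the scaling or on single arrays. Under Bacillus control scaling, dlb (-0.25, adjusted p = 0.141), jag1a (-0.14, adjusted p = 0.314) and notch3 (-0.32, adjusted p = 0.13) were no longer called in experiment 1, nor were jag1a and notch3 under joint quantile normalization (adjusted p = 0.0846 and 0.0585). In experiment 2, her8a, notch1b, nrarpa, tbxta, fgf8a, otx1, irx1b, neurod6a and ascl1a were not called in the fit of all 10 arrays (adjusted p = 0.0907 to 0.446). Of these, tbxta, irx1b and ascl1a were also lost under median centring (adjusted p = 0.0591 to 0.0981), and with her8a and notch1b under joint quantile normalization (adjusted p = 0.0695 to 0.143). In experiment 1 the calls of 4 ligand and receptor genes were lost without 1 array: jag2b without replicate 2 labelled morphant or control replicate 3, dlb without replicate 3 labelled morphant, jag1a without replicate 1 or 2 labelled morphant or control replicate 2, and notch3 without any 1 array labelled morphant (adjusted p = 0.052 to 0.0917). In experiment 2 the call of tbxta was lost without any 1 array, and those of her8a, irx1b, notch1b, tle3a and ascl1a without replicate 2 of 2.5 hpf (adjusted p = 0.0931 to 0.231). irx1b and fgf8a also lost theirs without replicate 1 of 4 hpf, notch1b, tle3a and ascl1a without replicate 2 of 4 hpf, and fgf8a without replicate 1 of 2.5 hpf.

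Markers of other parts of the embryo, of maternal oocyte RNA and of late differentiated tissues were counted as well. For comparison, 21.2% of all probe sets fell and 21.3% rose in experiment 1, and 9.88% fell and 9.66% rose in experiment 2. All 5 measured enveloping layer genes fell, with mean levels of 4.46 to 4.88 in arrays labelled morphant and of 7.46 to 7.83 in controls. Of these, 2 were dim in both groups. All 6 yolk syncytial layer genes fell, with mean levels of 4.62 to 4.99 in arrays labelled morphant and of 7.34 to 8.15 in controls. Of 9 maternal oocyte genes, 7 rose, with mean levels of 10.67 to 10.71 in arrays labelled morphant and of 8.80 to 9.30 in controls. None of 9 genes of late differentiated tissues was called by limma in experiment 1. In whole embryos, fewer cells of a type and less RNA per cell cannot be told apart. Between the times of experiment 2, 2 of the 5 enveloping layer genes rose, with all 5 dim at both times. Of the 6 yolk syncytial layer genes, 1 rose and 5 were dim at both times. In the maternal list 4 of the 9 genes fell, with mean levels of 10.81 to 10.82 at 4 hpf and of 11.17 to 11.21 at 2.5 hpf. Of the 9 genes of late differentiated tissues, 3 rose: actc1b by 0.545, ins by 0.36 and gfap by 0.41 at background (limma adjusted p = 0.00327, 0.025 and 0.00727). The part of these shifts in the her5 differences was not tested. Of the 10 other measured genes nearest to the members on their chromosomes, 1 fell (lrrc15 near her6, at least 1.59-fold) and 2 rose (opa1 near her6, 1.72-fold, and klhl17 near her9, at least 1.84-fold) in arrays labelled morphant; at 4 hpf sult1st3, near her3, was higher by 0.30 at background, a call lost under median centring, joint quantile normalization and the fit of all 10 arrays (adjusted p = 0.112 to 0.17) and without replicate 1 or 2 of 2.5 hpf or replicate 1 of 4 hpf (adjusted p = 0.091 to 0.182). Nothing is read from these counts of neighbours, since 42.5% of all probe sets were called in experiment 1 and 19.5% in experiment 2. The genes nearest to her5 that were measured, zdhhc2 and pfdn6, were not called in either experiment.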

How the data were processed

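The authors deposited 1 log2 value per probe set and array, from RMA in the affy package per the submitters' processing notes, with no version given. These were used as they stand. Between arrays of an experiment, sorted values were at most 0.367 apart; between experiments, up to 1.52. After 115 control probe sets were left out, 15502 were tested: 10795 with 1 gene, 135 with several and 4572 with none in the array annotation. Of those with 1 gene, 10711 were matched to RefSeq (GRCz12tu, names and neighbours only).

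limma 3.58.1 in R 4.3.3 was run separately on each experiment (group as the only term, two-sided) and p-values were Benjamini-Hochberg adjusted over all 15502 probe sets; the fit was tested on simulated data. Figures were drawn with matplotlib 3.10.9. A fold against a dim group is a lower bound against its highest tag control mean. Array number limits the precision. Same-numbered arrays of experiment 1 deviated together (r = 0.318, 0.202 and 0.114, all above 0.1), so its numbers were taken as pairs for an alternative fit; experiment 2 gave -0.024.

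The members and lists were chosen with earlier results of these data known. A gene of a list was taken by its brightest probe set over the 10 arrays. The 3 called genes with the largest difference were named per list and experiment, and the 3 genes nearest in profile per member.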

Additional observations from a re-analysis of the deposited data

How the results depend on the processing

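The her5 differences kept their direction and their call under every alternative run in both experiments. With all arrays, 2 members' probe sets fell and 0 rose in experiment 1. The falls were 1 under Bacillus control scaling, 1 under joint quantile normalization and 1 with dim probe sets left out, since her9 is dim. They ranged from 1 to 4, and the rises from 0 to 1, when 1 array was left out. In experiment 2, the 2 rises became 1 under joint quantile normalization, 1 with dim probe sets left out and 1 in a fit of all 10 arrays, and ranged from 1 to 3 with 1 array left out; 1 member fell under joint quantile normalization. Over all probe sets, Bacillus control scaling gave 5631 rises and 1987 falls in experiment 1, against 3307 and 3284 as deposited. In experiment 2, against 1498 and 1532, median centring gave 754 and 2302, the fit of all 10 arrays 326 and 408, and leaving out 1 array 599 to 1455 and 827 to 1358. The order of the groups was that of joint quantile normalization for 4 of 7 probe sets under median centring and for 4 under Bacillus control scaling. In experiment 1, her6 and her7 turned to 0.072 and 0.0081 under Bacillus control scaling. With 1 array left out, her7 ranged from -1.04 to 0.87, the brighter her3 probe set from -0.52 to 0.024 and the dimmer from -0.10 to 0.13. In experiment 2 the dimmer her3 probe set was -0.027 under joint quantile normalization and ranged from -0.062 to 0.25 with 1 array left out. The cause was not tested. With the replicate number as a block, 2 members' probe sets fell and 0 rose in experiment 1 and 2 rose and 0 fell in experiment 2, and no member's call changed; over all probe sets the block called 3456 rises and 3464 falls, and 1626 and 1615. A gene counted as called if any of its probe sets was called, which gave 2 genes in each experiment. All members but her5 and her6 were near or below background, and how far a fall could show there was not tested. A probe set dim in both groups could still be called as lower. The enveloping layer gene evpla averaged 1.69 in arrays labelled morphant, against 3.71 in controls (limma adjusted p = 3.04e-05).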
